A study of Homo sapiens with 4 samples.

Results

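Satellite peaks are iCLIP peaks that were called in 1 replicate only and that lie close to a place where both replicates had a peak. Satellites were chosen by 2 measured properties of the peak calls, overlap and distance: each overlapped no peak of the other replicate, not even by 1 bp, and had its nearest edge within 10000 bp of an interval shared by both replicates. Of 1253 peaks in the 2 lists, 745 overlapped no peak of the other replicate and 229 of these were satellites, 124 of 719 peaks in replicate 1 and 105 of 534 in replicate 2. The other 516 single-replicate peaks are called isolated here, and the 508 peaks that overlapped one another made up the shared peaks behind 282 shared intervals.

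The cells were HEK293 (T-REx), an established human embryonic kidney line. In 2 libraries the cells expressed F-MARF1ΔNYN, a FLAG-tagged MARF1 without its NYN nuclease domain, from a doxycycline-inducible transgene switched on with 100 ng/mL for 12 h. In 2 control libraries the cells carried no FLAG-tagged MARF1, and whether they received doxycycline is not stated. Cells of all 4 libraries were crosslinked with UV at 254 nm and 400 mJ per square centimetre, and RNA bound to FLAG-precipitated protein was sequenced, with each F-MARF1ΔNYN library set against the control of the same number. Peaks cannot show the cell line's markers, so its identity was not checked.

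MARF1 is an endoribonuclease that was first known for its role in oocyte meiosis. It has LOTUS and RRM domains beside the NYN nuclease domain, and it associates with EDC4, a scaffold of the mRNA decapping machinery. The 3'UTR, the stretch of an mRNA after its stop codon, is a common site for proteins that control mRNA decay.

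The sequences below give 30 nt around the summit, the most covered base of a peak, in the direction of the gene on GRCh37 (hg19). The capital marks the summit base, which after read extension is not the crosslinked base. HEG1 is shown because its satellites outnumbered its shared interval most, with its strongest satellite and its shared peak in each replicate, all in the 3'UTR. The satellite shown for replicate 2 is 1 of 2 with equal values.
HEG1 satellite peak, replicate 1 (chr3:124686147-124686176, minus strand): tataggaagtggaaGgcaaggacctgggtt
HEG1 satellite peak, replicate 2 (chr3:124687912-124687941, minus strand): tctgccccgggcatGgttgtttcttcaagg
HEG1 shared peak, replicate 1 (chr3:124686513-124686542, minus strand): gcttgccctgtagaAgcaggactgaaaccc
HEG1 shared peak, replicate 2 (chr3:124686618-124686647, minus strand): tcctaccatgaccaGgctctgggcaaggct

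LCOR held the most satellites. Its strongest satellite of replicate 1 and its strongest shared peak of each replicate, all in the 3'UTR, are given next. Each sequence shown occurred at 1 place in the genome.
LCOR satellite peak, replicate 1 (chr10:98747225-98747254, plus strand): tttttcatttttaaAagctcagttaaagat
LCOR shared peak, replicate 1 (chr10:98747553-98747582, plus strand): aagcagtttcccagAtacctccaagctcag
LCOR shared peak, replicate 2 (chr10:98747711-98747740, plus strand): agaaaggaattctcCtgggtgtacactcag

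ZKSCAN1 is shown because its closest satellites of the 2 replicates lay 3 bp apart without touching. Both were in the 3'UTR.
ZKSCAN1 satellite peak, replicate 1 (chr7:99633475-99633504, plus strand): attgtgagctgtgtAagtagtcatcgccac
ZKSCAN1 satellite peak, replicate 2 (chr7:99633242-99633271, plus strand): aagcattaattgttCactggcaattactaa

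The last set holds 5 of the strongest satellites by q-value. Those of TTYH3, PTBP3 and RB1 lay in 3'UTRs, that of NORAD in a non-coding exon and that of MARF1 in coding sequence.
TTYH3 satellite peak, replicate 2 (chr7:2704174-2704203, plus strand): acctcccccaccccAgtgtgatttaacatc
PTBP3 satellite peak, replicate 1 (chr9:114984829-114984858, minus strand): gggaataattcagtGcacacctgtaggcct
RB1 satellite peak, replicate 1 (chr13:49054700-49054729, plus strand): cctgaactcttctgCaaaaatggatattat
NORAD satellite peak, replicate 1 (chr20:34637409-34637438, minus strand): atatagtgtacataAaggacagacgagtcc
MARF1 satellite peak, replicate 2 (chr16:15703381-15703410, minus strand): actttttgaagccaTacctgatactttaca

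Distance and overlap chose the satellites, so the distances that follow are a description. Satellites made up 124 of 461 single-replicate peaks in replicate 1 (26.9%) and 105 of 284 in replicate 2 (37%). Their median distance to the nearest shared interval was 535 bp in replicate 1 and 647 bp in replicate 2. With a reciprocal overlap of 50% in place of 1 bp, 457 peaks were satellites in place of 229. Of the 229, most lay far inside the limit, with 159 within 1000 bp (69.4%, 95% Wilson interval 63.2 to 75.0%) and 223 within 5000 bp. Such intervals cover counting error only. The nearest satellites were 2 at 56 bp, in the 3'UTR of SMC1A, a cohesin subunit, and in the non-coding gene ENSG00000186076, which matches the PGAM1 transcript, both of replicate 2. Another of replicate 2 lay 59 bp from an interval in the 3'UTR of WDR36.

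The deposited fold enrichment given from here on is the ratio of reads to local background at the summit with 1 added to both, so at a background near 0 it is close to the number of reads plus 1. Just inside the limit, a 3'UTR peak of HIPK2, a nuclear kinase, lay 9262 bp from its interval with a fold enrichment of 5.71 in replicate 1. It was followed by KDM5A, a histone demethylase, at 7168 bp in replicate 1 with 4.90, and a coding peak of TNRC18 at 5384 bp in replicate 2 with 9.55 and a summit sequence found at 3 places in the genome. Just outside it, a pair of 3'UTR peaks of ANKRD52 lay at 18483 bp in replicate 1, with a fold enrichment of 5.55, and at 18713 bp in replicate 2, with 6.48. The next was a coding peak of PTBP3 at 39608 bp in replicate 1, with 5.69. No single-replicate peak lay between 9262 and 18483 bp, and the other isolated peaks were mostly much farther.

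**Figure D1:**
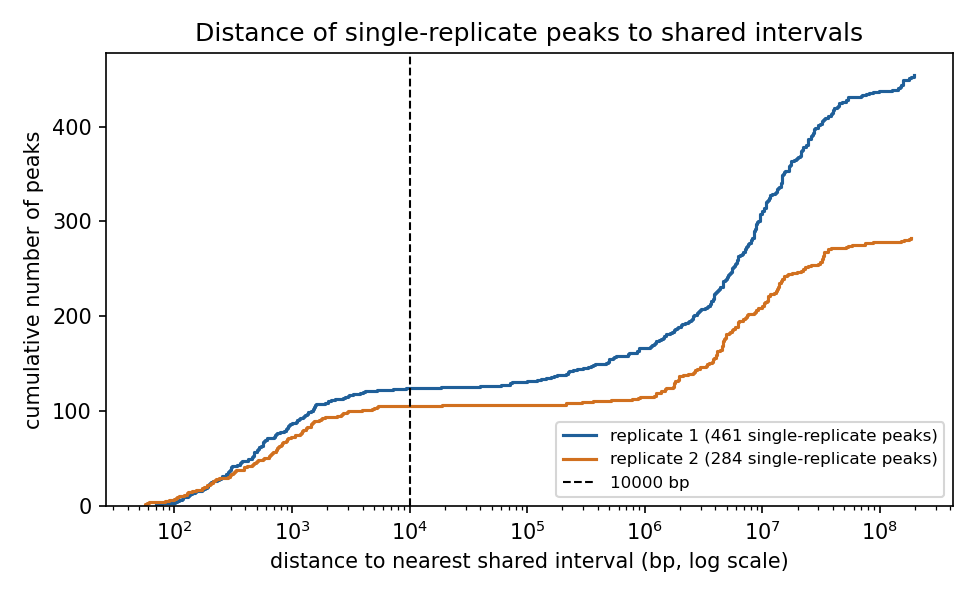
Cumulative number of single-replicate peaks (vertical axis) by distance to the nearest shared interval in bp (horizontal axis, log scale), for replicate 1 in blue and replicate 2 in orange. Both curves are flat around the dashed line at 10000 bp, where they stand at 124 and 105 peaks.

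The satellites fell in 80 genes, with 7 in no gene. Of the 114 genes with a shared interval, 75 also held a satellite (65.8%). In 34 genes both replicates had satellites, in 27 only replicate 1 and in 19 only replicate 2. A single satellite was found in 28 genes, 2 in 16 genes, and 3 or more in 36. The 12 genes with most held 77 of the 229. The gene of the satellite was the gene of its nearest shared interval for 216 of 229, with both genes placed by the same annotation and not by the authors' gene names.

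LCOR, a ligand-dependent nuclear receptor corepressor, had 4 satellites in replicate 1 and 7 in replicate 2, around 6 shared intervals in a 3'UTR of 10822 nt. Their fold enrichments ran from 4.78 to 10.3, against 7.94 and 10.3 for its strongest shared peaks, and the next highest satellite was at 9.55. The summit sequence of the satellite at 10.3 occurred at 20389 places in the genome, the most of any satellite. The authors removed reads of many places, so the reads counted there need not lie wholly in that sequence. Their source was not tested. HEG1, a membrane receptor of vascular development, had 6 satellites in replicate 1 and 2 in replicate 2 around 1 shared interval. From outermost start to outermost end, the shared interval of HEG1 spanned 47 bp, and interval and satellites together spanned 4553 bp. Such a span includes the gaps between peaks and can only widen when satellites are added. SSH2, a cofilin phosphatase, had 3 and 4 satellites and 3 shared intervals. SBNO1 had 2 and 3 satellites and 1 shared interval, and its satellite at 11.1-fold with 13 reads in replicate 2 stood above its shared peak there, at 6.43-fold with 7 reads. IREB2, which controls iron-regulated mRNAs, had 2 and 3 satellites of 9 to 14 reads, and the summit sequence of 1 of them in replicate 2 occurred at 12 places in the genome. POMK, a kinase that modifies the glycans of dystroglycan, had 2 and 3 satellites, 4 of them upstream of its 1 shared interval.

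A different pattern was seen in genes whose satellites came from 1 replicate. Of the 36 genes with 3 or more satellites, 7 had them all in the same replicate. HIPK1, a kinase of the same family as HIPK2, had 5 in replicate 1 and 0 in replicate 2, each upstream of the nearest of its 4 shared intervals, with 8 to 12 reads each. Others were CBX6 with 0 and 3, ZFP36L2 with 4 and 0, and ITGA2, an integrin subunit, and LNPEP with 3 and 0 each. ITGA2 was chosen after its values were seen.

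**Figure D2:**
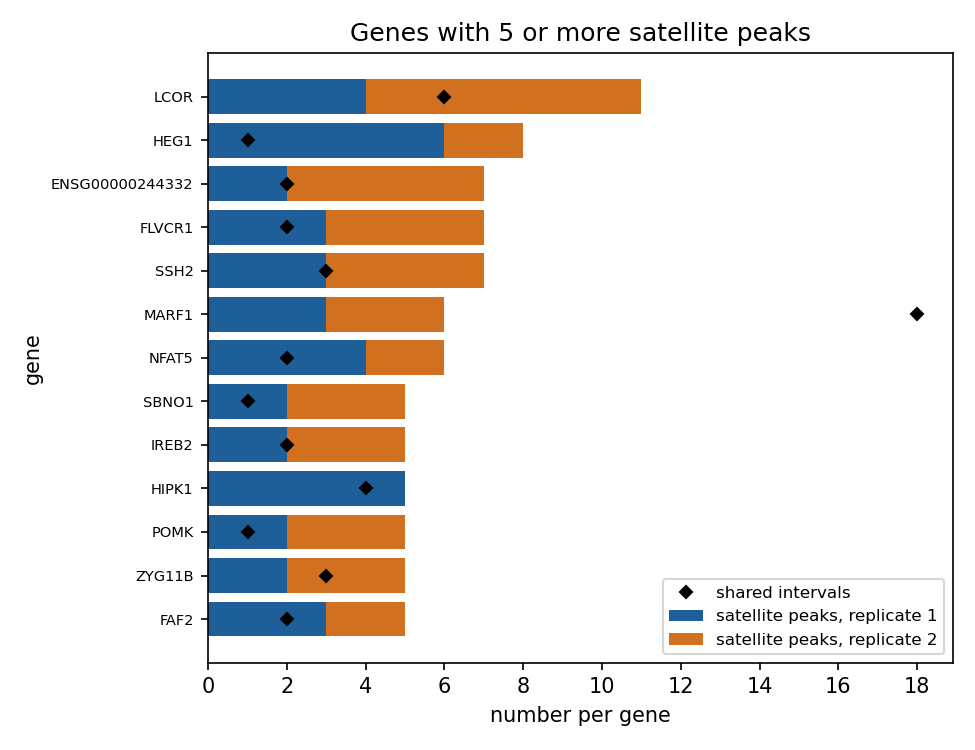
Number of satellite peaks per gene in replicate 1 (blue) and replicate 2 (orange), stacked, with the number of shared intervals as black diamonds, for the 13 genes with 5 or more satellite peaks. LCOR leads with 11 satellite peaks, while MARF1 with 18 shared intervals has 6.

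Genes were also described by lists, which share some genes. Over all genes with a shared interval, 75 of 114 held a satellite (65.8%), and nothing particular to a list is read from its count. Among 8 genes whose 3'UTRs the study placed in reporters, 4 held satellites, against the 65.8% over all. ZFP36L2, which binds AU-rich elements, had 4 in replicate 1 and 0 in replicate 2. FAF2, an adaptor of protein degradation at the endoplasmic reticulum, had 3 and 2. CPSF7, a subunit of the cleavage factor for mRNA 3' ends, had 1 in each, and IGF2BP1, an mRNA-binding protein, had 1 in replicate 2 with 16 reads. None was placed in MAML1, NOTCH2, ATXN7L3 or PGAM1, but 5 satellites lay in near-identical copies of the PGAM1 transcript. The summit sequence of 1 of them, in PGAM4, occurred at 1 place in the genome, and the source of its reads was not tested. Whether the reads of the others came from PGAM1 cannot be told apart.

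Of 10 signalling genes, 9 had a shared interval and 4 of these held 10 satellites, against 65.8% of all genes with a shared interval. Among these genes, IRS2, an adaptor of the insulin receptor, had 3 and 1, and ROR1, a receptor for Wnt ligands, had 2 and 0. PRKCA, a protein kinase C, had 1 in replicate 2, at 3975 bp from its interval. Of 5 genes of cell cycle, growth and kinases, 3 held 9, beside the same 65.8%. Beside HIPK1, these were TP53RK with 1 in replicate 2 and MYC, a transcription factor, with 1 and 2. The MYC satellites of replicate 2 were placed in coding sequence, a class taken wherever any transcript has it at the summit. In other transcripts the class there may differ. These satellites had 14 and 15 reads, over at most 2 and 3 control reads, the number that the local background allows at the summit.

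Of 8 genes of RNA binding and processing, 6 held 19 satellites, again beside 65.8% of genes over all. The 19 count those of ZFP36L2, CPSF7 and IGF2BP1 a further time, and 6 of the 19 were in MARF1, described below. PURB, a single-stranded nucleic acid-binding protein, had 3 and 1, all downstream of its shared interval at 641 to 3985 bp. NORAD, a long non-coding RNA that binds Pumilio proteins, had 2 in replicate 1 with 24 and 21 reads, each with a near-identical stretch in another transcript. Of 6 genes of transcription and chromatin, 4 held 12, also near the 65.8%. NFAT5, a transcription factor of the osmotic response, had 4 and 2, with 1 summit sequence of replicate 2 found at 7 places, and CBX6, a Polycomb subunit, had 0 and 3 beside 12 shared intervals. ZNF609 had 0 and 2, and ZNF24 had 1 and 0.

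Of 8 genes of membrane transport and trafficking, 7 had a shared interval and 5 of these held 17 satellites, beside the 65.8% over all genes with one. FLVCR1, a transporter first described as a heme exporter, had 3 and 4 along a 3'UTR of 4073 nt. Its satellite of replicate 2 at 959 nt after the stop codon had a fold enrichment of 10.2 and 14 reads, the highest of the 7. LNPEP, an aminopeptidase of intracellular vesicles, had 3 and 0 beside 15 shared intervals. SPAG9, a scaffold for JNK signalling, had 1 and 3, DNAJC5, a synaptic vesicle chaperone, 0 and 2, and GOSR1, a Golgi SNARE, 1 and 0. Of 4 genes of the ubiquitin pathway, 3 had a shared interval and 2 of these held satellites. ZYG11B, which recruits substrates to a cullin ligase, had 2 and 3, with 1 summit sequence found at 4 places, and FAF2 had those given above. The 6 genes of decapping and decay (EDC3, EDC4, DCP1A, DCP1B, DCP2 and XRN1) held 0 satellites and 0 shared intervals, and DCP2 had 1 isolated peak. Across the lists with satellites, median reads at the summit ran from 7 to 11, and over all satellites the median was 9.

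**Figure D3:**
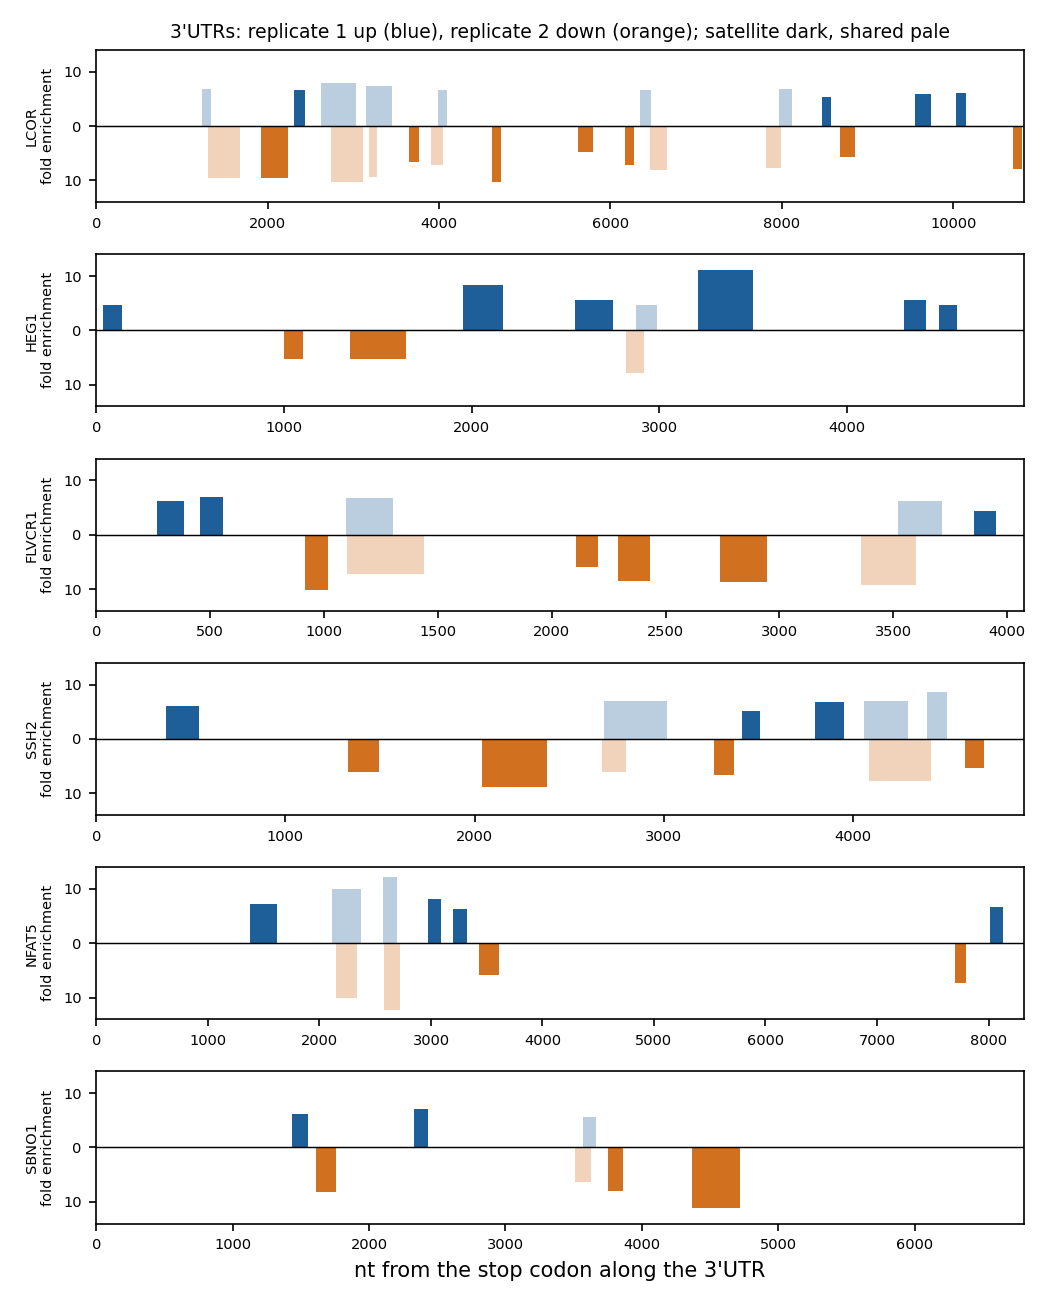
Peaks along the 3'UTRs of the first 6 genes by number of satellite peaks among those whose satellites all lie in the 3'UTR (ties by q-value), by nt from the stop codon (horizontal axis) and fold enrichment (bar height). Replicate 1 points up in blue, replicate 2 points down in orange, satellite peaks are dark and shared peaks pale. In HEG1 the 8 dark bars spread over most of the 4942 nt, on both sides of the pale pair.

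By the summit base, 196 of 229 satellites lay in 3'UTRs (85.6%, interval 80.5 to 89.6%), with 108 of 124 in replicate 1 (87.1%) and 88 of 105 in replicate 2 (83.8%). Coding sequence held 9, non-coding exons 10, introns 7 and intergenic sequence 7. Shared peaks had 413 of 508 in 3'UTRs (81.3%) and isolated peaks 411 of 516 (79.7%). Isolated peaks differed between replicates, at 74.2% in replicate 1 and 89.9% in replicate 2, so satellites had the higher share in replicate 1 and isolated peaks in replicate 2. Within the 3'UTR, the median satellite lay at 42.3% of its length from the stop codon in replicate 1 and at 49.2% in replicate 2, against 53.2% and 54.8% for shared peaks. These differences were not tested, since the rule chose the peaks.

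Satellites stood on both sides of the shared intervals. Among the 216 in the gene of their interval, 100 lay downstream of it along the transcript (46.3%, interval 39.8 to 53.0%), with 47.0% in replicate 1 and 45.5% in replicate 2. In genes with 2 or more shared intervals, 19 of 69 satellites of replicate 1 lay between 2 of them (27.5%, interval 18.4 to 39.0%) and 29 of 64 of replicate 2 did (45.3%, interval 33.7 to 57.4%). Peaks carry no strand, and each peak in a gene was given the strand of that gene. The sequence of peaks in no gene was read on the plus strand.

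Every satellite lies near a peak of the other replicate by the rule, since each shared interval holds one, so the distances to such peaks are a description only. The nearest peak of the other replicate was within 200 bp for 45 of 124 satellites in replicate 1 (36.3%) and 42 of 105 in replicate 2 (40.0%). Within 500 bp it was 62.9% over both replicates, in place of 38.0% within 200 bp. The nearest such peak was a shared peak for 145 satellites and another satellite for 84. In 12 pairs a satellite of each replicate lay within 100 bp of the other. The pair of ZKSCAN1, a zinc finger protein, had 7 reads in replicate 1 and 13 in replicate 2, with summits 233 bp apart. In TTYH3 the pair stood 37 bp apart with 13 and 19 reads. CBL, a ubiquitin ligase for receptor tyrosine kinases, had a pair 17 bp apart with 10 reads in each replicate. ZKSCAN1 and CBL were chosen after their values were seen.

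Reads at the summit were solved from the deposited fold enrichment and p-value. Satellites had a median of 8 reads in replicate 1 with 4 to 24 over all, and 11 in replicate 2 with 5 to 28. Shared peaks had medians of 12 and 14.5 reads, and isolated peaks 6 and 9. The median fold enrichment of satellites, with 1 added to reads and background, was 6.14 in replicate 1 and 7.23 in replicate 2, between isolated peaks at 5.64 and 6.96 and shared peaks at 7.21 and 8.15. At these low backgrounds, with medians of 0.353 and 0.4 reads for satellites, the order of the fold enrichments largely repeats that of the reads. The background allowed 0 control reads at 91 of 124 satellites in replicate 1 (73.4%) and 70 of 105 in replicate 2 (66.7%), against 49.2% and 56.8% of shared peaks and 86.1% and 82.1% of isolated peaks. A q-value below 0.01 was reached by 123 of 124 satellites in replicate 1, where 97.6% of all peaks reached it, and by 101 of 105 in replicate 2, where 98.5% did. A q-value below 0.001 was reached by 108 of 124 satellites in replicate 1, where 85.5% of all peaks reached it, and by 93 of 105 in replicate 2, where 92.1% did. The same calls define the peaks, so these values describe them and nothing is read from the difference.

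The strongest satellite by q-value lay in the MARF1 coding sequence in replicate 2, with 17 reads, a fold enrichment of 16.0 and a q-value of 4.62e-28. MARF1 had 3 satellites in each replicate, 5 of the 6 in coding sequence, beside 18 shared intervals. The transgene also gives MARF1 coding sequence, so RNA of the endogenous gene and of the transgene cannot be told apart there. The next in replicate 2 was TTYH3, at 13.6-fold with 19 reads. In replicate 1 the first was PTBP3, a polypyrimidine tract-binding protein, at 12.4-fold with 15 reads, then HEG1 at 11-fold with 11 reads and KAT6A, a histone acetyltransferase, at 11.8-fold with 13 reads. NORAD followed at 9.30-fold with 24 reads, and RB1, the retinoblastoma protein, at 9.48-fold with 9 reads.

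Set against the strongest shared peak of its gene in the same replicate, a satellite had a lower fold enrichment in most cases. The median log2 difference was -0.38 over 117 satellites of replicate 1 and -0.37 over 99 of replicate 2. The strongest of several shared peaks is a high bar, and against the nearest shared peak the median over both replicates was -0.19, in place of -0.37. A satellite was higher than the strongest shared peak in 25 of 117 cases in replicate 1 (21.4%, interval 14.9 to 29.6%) and in 30 of 99 in replicate 2 (30.3%, interval 22.1 to 40.0%). The largest such difference was in HEG1 in replicate 1, at 11-fold against 4.59-fold, a log2 difference of 1.26. It rests on 11 and 4 reads over a background near 0, so the 1 added to each sets much of both values. Satellites of 1 gene share a transcript and are not independent of one another.

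**Figure D4:**
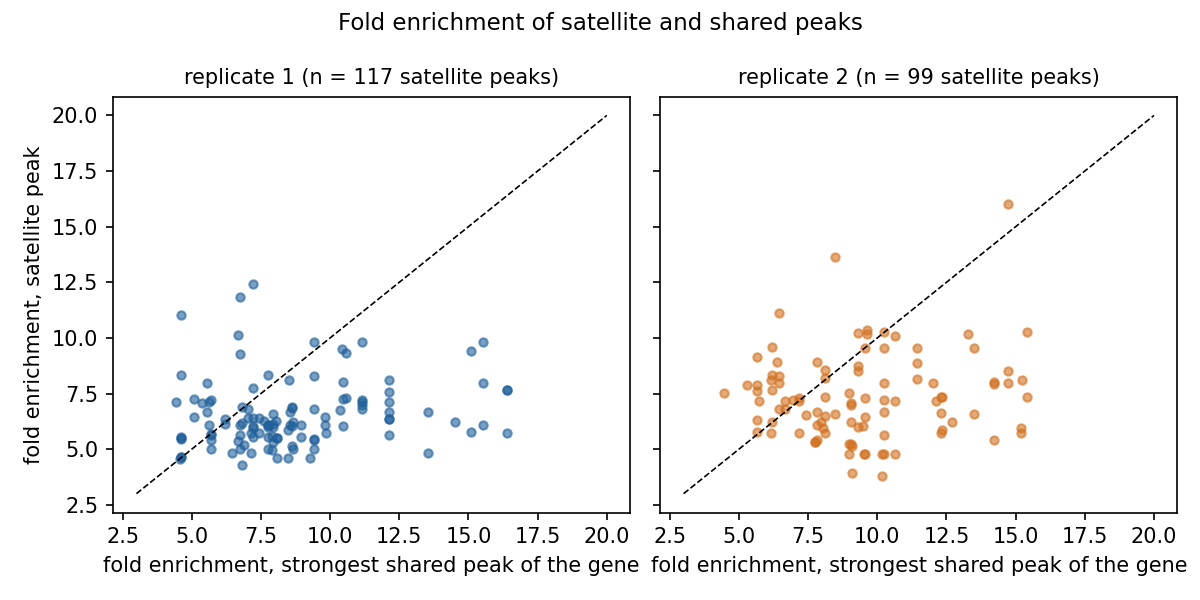
Fold enrichment of each satellite peak (vertical axis) against that of the strongest shared peak of the same gene and replicate (horizontal axis), with replicate 1 left and replicate 2 right. Points above the dashed line of equal fold enrichment, 25 of 117 and 30 of 99, are satellite peaks higher than the shared peak.

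The 100 nt around the summit had a median GC content of 41% in satellites of replicate 1 and 45% in those of replicate 2. Shared peaks had 45% and 44%, isolated peaks 39% and 46%, and 2332 tiles of 100 nt outside all peaks in the 3'UTRs that hold satellites had 38%. The satellite and isolated medians of replicate 1 both lay nearer to the tiles than those of replicate 2, and the ranges of all of these overlapped. The median predicted folding energy was -19.0 kcal/mol in satellites of replicate 1 and -22.2 kcal/mol in those of replicate 2. It was -21.9 and -21.4 kcal/mol in shared peaks, -19.5 and -21.4 kcal/mol in isolated peaks and -17.5 kcal/mol in the tiles. How far GC content and folding energy move together was not measured, and their separate parts were not tested. The tiles come only from 3'UTRs that hold satellites, while the peaks include those outside 3'UTRs and in other genes. Peaks and tiles thus also differ in region and gene.

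Short motifs were counted in the same 100 nt, on the gene's strand or, for peaks in no gene, on the plus strand. The 5 motifs were not planned and were taken up during the work, so their shares are a description only. The poly(A) signal AATAAA was in 12 of 229 satellites (5.24%, interval 3.02 to 8.93%), 4.72% of shared peaks, 6.78% of isolated peaks and 7.50% of tiles. The AU-rich core ATTTA was in 29 satellites (12.7%, interval 8.96 to 17.6%), 15% of shared peaks, 13.8% of isolated peaks and 20% of tiles. AAATT was in 39 satellites (17%, interval 12.7 to 22.4%), 12.8% of shared peaks, 14.3% of isolated peaks and 23.9% of tiles. Lower shares than in the tiles were thus seen in all kinds of peak for these motifs and were not particular to satellites. GAAGA was in 32 satellites (14%, interval 10.1 to 19.1%), 14.4% of shared peaks, 10.7% of isolated peaks and 11.8% of tiles. The Pumilio element TGTANATA was in 7 satellites (3.06%, interval 1.49 to 6.17%), 2.95% of shared peaks, 3.68% of isolated peaks and 2.32% of tiles. The motifs made of A and T alone were more frequent in the tiles than in every kind of peak, while GAAGA was so against isolated peaks only. The tiles had the lower GC content, and whether base composition plays a part in these shares was not tested. Here too the peaks include those outside 3'UTRs and in other genes, which the tiles do not.

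**Figure D5:**
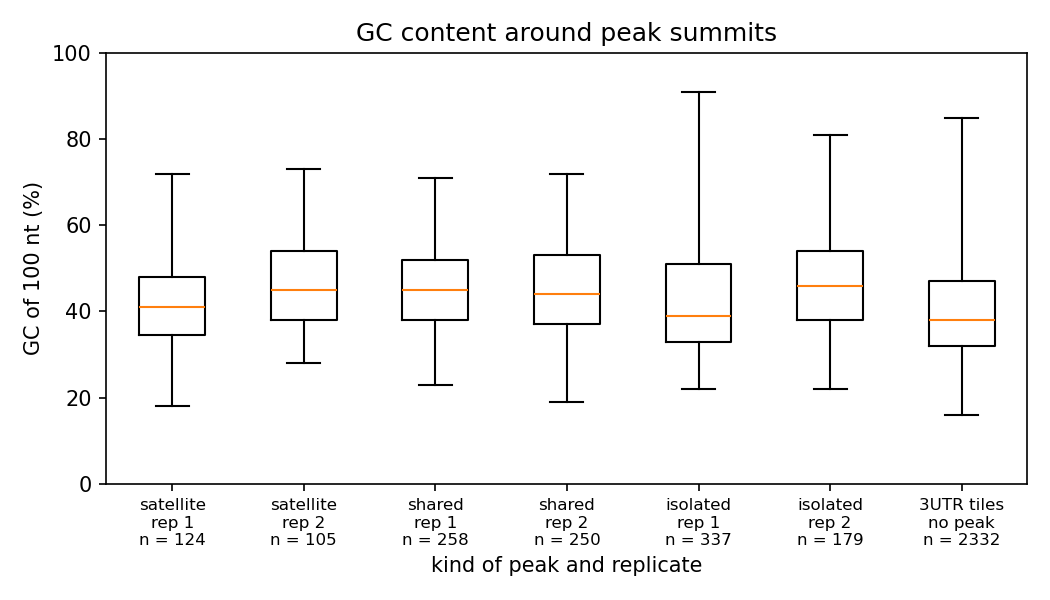
GC content in percent of the 100 nt around peak summits by kind of peak and replicate, and of tiles outside peaks in the 3'UTRs that hold satellites. The peaks include those outside 3'UTRs and in other genes. Boxes give the quartiles and median, whiskers the lowest and highest values, and the satellite medians are 41% and 45% beside 38% in the tiles.

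A share of satellites lay in sequence with copies elsewhere. The 30 nt at the summit occurred at more than 1 place in the genome for 7 of 124 satellites in replicate 1 and 12 of 105 in replicate 2, 19 in all (8.30%, interval 5.38 to 12.6%). Among shared peaks this held for 47 of 508 (9.25%). Near-identical transcripts, at 95% identity over 90% of the peak, were found for 13 of 229 satellites (5.68%). They were found for 44 of 508 shared peaks (8.66%) and 34 of 516 isolated peaks (6.59%), so they were not particular to satellites. Copies of PGAM1 were the largest family, with 2 satellites in PGAM4 and 1 each in PGAM1P8, ENSG00000186076 and an intergenic stretch of chromosome 12, at 6 to 17 reads. PGAM4 and PGAM1P8 were chosen after their values were seen. FOXO3B, a close copy of FOXO3, held 1 in replicate 2 at 11.1-fold with 13 reads. An intergenic stretch of chromosome 7 that matches HAUS6 held 3, the strongest at 10.4-fold with 11 reads in replicate 2. ENSG00000285042, a non-coding gene that matches NORAD, held 1 in replicate 2 at 10.7-fold with 17 reads. The summit sequence of 1 PGAM4 satellite, with 16 reads, occurred at 1 place in the genome, and the source of its reads was not tested. In each of the others, the copy that gave the reads cannot be told apart.

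At several intervals the authors' final list names another gene than the one given here, among them intervals near satellites of IRS2, SSH2 and MARF1. A pair of loci outside annotated 3'UTRs, where the gene was unclear, is described next. On chromosome 10, where the final list names HELLS, a chromatin remodeller, the non-coding gene ENSG00000244332 held 2 satellites in replicate 1 and 5 in replicate 2, 6 of them in its intron, and 1 more satellite of each replicate lay in intergenic sequence beyond it. Their fold enrichments in the gene ran from 4.60 to 9.13, with 11 to 23 reads. On chromosome 16, ENSG00000260927, a non-coding gene, held 1 and 2 satellites in an exon, where the final list names CSNK2A2, a casein kinase subunit. This gene was chosen after its values were seen. Since peaks carry no strand, the transcript behind the peaks at either locus cannot be told apart.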

How the data were processed

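The 4 iCLIP libraries were 2 of F-MARF1ΔNYN and 2 of control cells. Per the study's methods, the authors used Trimmomatic 0.32 for trimming and STAR 2.3.0e for alignment to GRCh37 (hg19), removed reads of many places, secondary alignments (SAMtools 1.9) and duplicates (Picard 2.10.7), and called peaks with MACS2 2.1.1 without a model, at an extension of 100 bp, in each F-MARF1ΔNYN library against the control of the same number. The authors deposited for each peak a score, a fold enrichment (a ratio of depth-scaled reads to the local background, with 1 added to each), and p and q as −log10 values. The largest q-value was 0.0489 in replicate 1 and 0.0433 in replicate 2. HOMER 4.10 annotated the intersection of the lists. The deposited lists hold no value per library and 0 columns of such values were left unused, so no test between conditions was made.

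Lists were intersected at 1 bp. Reads and background at the summit were solved from fold enrichment and Poisson p-value. A whole number of reads was found for 1253 of 1253 peaks at a tolerance of 0.001 in the −log10 p. Totals per library are unknown, and the low number of reads limits the precision. Summits were placed in GENCODE release 44 transcripts on GRCh37, with coding sequence of any transcript ranked before 3'UTR, then 5'UTR, non-coding exon and intron. Folding energies came from ViennaRNA 2.7.2 and copies from blastn 2.17.0 at 95% identity over 90% of the peak. Exact matches of 30 nt were sought on both strands of the assembled chromosomes. Shares have 95% Wilson intervals. Python 3.11.15, numpy 2.4.6, pandas 2.3.3, scipy 1.17.1, pysam 0.24.0 and matplotlib 3.10.9 were used.

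Genes were named by rule: the 12 with most satellites, those of the 5 satellites with the smallest q-value in each replicate, of the 3 nearest and 3 farthest satellites, of the 3 peaks just outside 10000 bp, and genes with a satellite in the lists. Not every gene that the rule takes is named. Members and lists were chosen with earlier results of these data known. Genes said to be chosen after their values were seen fall outside the rule. The motifs and the count of genome matches were added after seeing the data. Alternatives covered the distance, a q-value below 0.01, the overlap, the base that places a peak, and each replicate alone.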

Additional observations from a re-analysis of the deposited data

How the results depend on the processing

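Of 52 values under alternatives that keep both replicates, 43 stayed within the replicates' spread (1 SD, or 1.5 times for a count). The share in the gene of the nearest interval, 94.3%, nearly equal in both replicates, became 95.1% within 5000 bp, 94.4% within 20000 bp and 94.2% at q below 0.01. A reciprocal overlap of 50% gave 457 satellites in place of 229, since peaks that overlap less then count as single. The share near a peak of the other replicate was 62.9% within 500 bp, against 38.0% within 200 bp. Against the nearest shared peak, the median log2 difference was -0.19, in place of -0.37. From summit to interval middle, the median distance was 735 bp, in place of 570 bp. Without the 19 satellites whose summit sequence occurs at more than 1 place, an alternative chosen after seeing the data, 89.0% of 210 lay in 3'UTRs and 97.6% in the gene of their interval. The causes were not tested beyond what each construction fixes.

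A satellite is defined by both lists, so leaving out the satellites of 1 replicate gives the values of the other replicate's satellites and is no separate check: 105 to 124 satellites, 53 to 61 genes, 83.8 to 87.1% in 3'UTRs, 94.3 to 94.4% in the gene of the interval, a median distance of 535 to 647 bp, 36.3 to 40.0% near the other replicate, a median log2 difference of -0.38 to -0.37, 45.5 to 47.0% downstream, 8 to 11 reads and 41 to 45% GC. No paired analysis was possible because every deposited list is itself a comparison of 1 library with its control, and no result comes from a test with a value per library. At medians of 8 and 11 reads, a satellite without a peak in the other replicate may have had reads there below the calling threshold, which the lists do not show, so its absence from that list was not detectable as absence of binding.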
